A study of Mus musculus with 26 samples.

Results

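Cells of the mouse dorsal root ganglion (DRG, the cluster of sensory cell bodies beside the spinal cord), labelled as semi-purified neurons, were compared after dissociation and 24 hours in culture with whole ganglia of uninjured mice, all of the control genotype. They are called neurons below after that label, although their neuronal RNA was lower and their endothelial RNA higher than in whole ganglia. The comparison takes 6 of the 26 libraries of the series: the 3 labelled as control semi-purified DRG neurons and the 3 labelled as control DRG without injury, chosen by these labels alone. The study concerned the aryl hydrocarbon receptor (AhR, a ligand-activated transcription factor encoded by Ahr) and axon regeneration, in mice from which floxed Ahr can be deleted by a tamoxifen-inducible Cre under a Thy1 promoter. Control mice had no Cre in their genotype label. The 3 cultured control libraries came from female Ahr fl/fl mice. Of the 3 naive libraries, all female, 2 were Ahr fl/+ and 1 (replicate 3) was Ahr fl/fl. The naive mice were 28 weeks old when tamoxifen (100 mg/kg each day, 5 days) was given, and their L4 to L6 ganglia were taken 5 weeks later, 1 mouse per library. For the neurons the labels give no age and no tamoxifen, and they do not say which cells the semi-purification removed. All ganglia were collected between 2 and 4 hours after lights on.

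Sensory neurons carry an axon into the peripheral nerve and another into the spinal cord, and cutting the peripheral one starts a transcriptional program, led by factors such as Atf3, Jun and Sox11, that is linked to axon regrowth. Dissociation cuts every axon at the cell body and can part the neuron from the Schwann cells along its axon and from the satellite glia that wrap it. A culture dish then adds a substrate, serum or supplements, and neighbours that the neuron does not meet in the ganglion. Enzymatic dissociation is also known to induce immediate early genes, the transcription factors that a cell switches on first after a stimulus.

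The libraries held 20930126 to 23491032 counts in the naive ganglia and 25299938 to 88180611 in the neurons, where replicate 1 was the shallow one. Levels are given as CPM, the counts of a gene divided by the scaled total of its library and set to 1 common scale, and a fold change is the log2 ratio of neurons over ganglia from edgeR's quasi-likelihood test, with its standard error (SE) and an adjusted p over all 21342 genes tested. The neurons and the naive ganglia were deposited in different tables, so table, depth, tamoxifen, dissociation and culture go with the group and cannot be told apart in this comparison. A second reference came from the table of the neurons: the ganglia opposite a sham operation of 2 male control mice (1 Ahr f/+, 1 Ahr fl/fl), taken 1 day after surgery. For these sham mice, too, the labels give no age and no tamoxifen. Sham contralateral and naive ganglia, both whole ganglia, already differed in 13384 of 21372 genes (62.6%). Among 1605 processed pseudogenes, which share sequence with their parent genes, the median log2 fold change of the neurons was -3.75 against naive and 0.26 against sham contralateral ganglia. For 76 cytosolic ribosomal protein genes it was 3.73 and 0.27. Gapdh, a glycolytic enzyme often used as a loading control, read 3.09, 3.19 and 2.85 CPM in naive, 113 and 112 CPM in sham contralateral ganglia and 162, 96.9 and 104 CPM in neurons. Fold changes below are against naive ganglia unless the other reference is named, and counts of list members are, unless stated otherwise, of genes called in the same direction against both references, a rule chosen after these values were seen. The 2 references share the neuron libraries.

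The neurons differed from naive ganglia in 17078 of 21342 genes (80%), 8568 higher (40.1%) and 8510 lower (39.9%). With upper-quartile scaling the same test gave 6927 higher and 10213 lower, as the median of all genes moved from -0.00933 to -0.292. A change beyond 2-fold was called for 8399 genes (39.4%), 3922 higher (18.4%) and 4477 lower (21%). Against both references 10413 of 20663 genes were called in the same direction (50.4%), 5351 higher (25.9%) and 5062 lower (24.5%), and 1446 genes were called in opposite directions by the 2 references. The shares for both references are the background for every list below, and a list with shares near those in both directions is not set apart from the other genes.

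**Figure D1:**
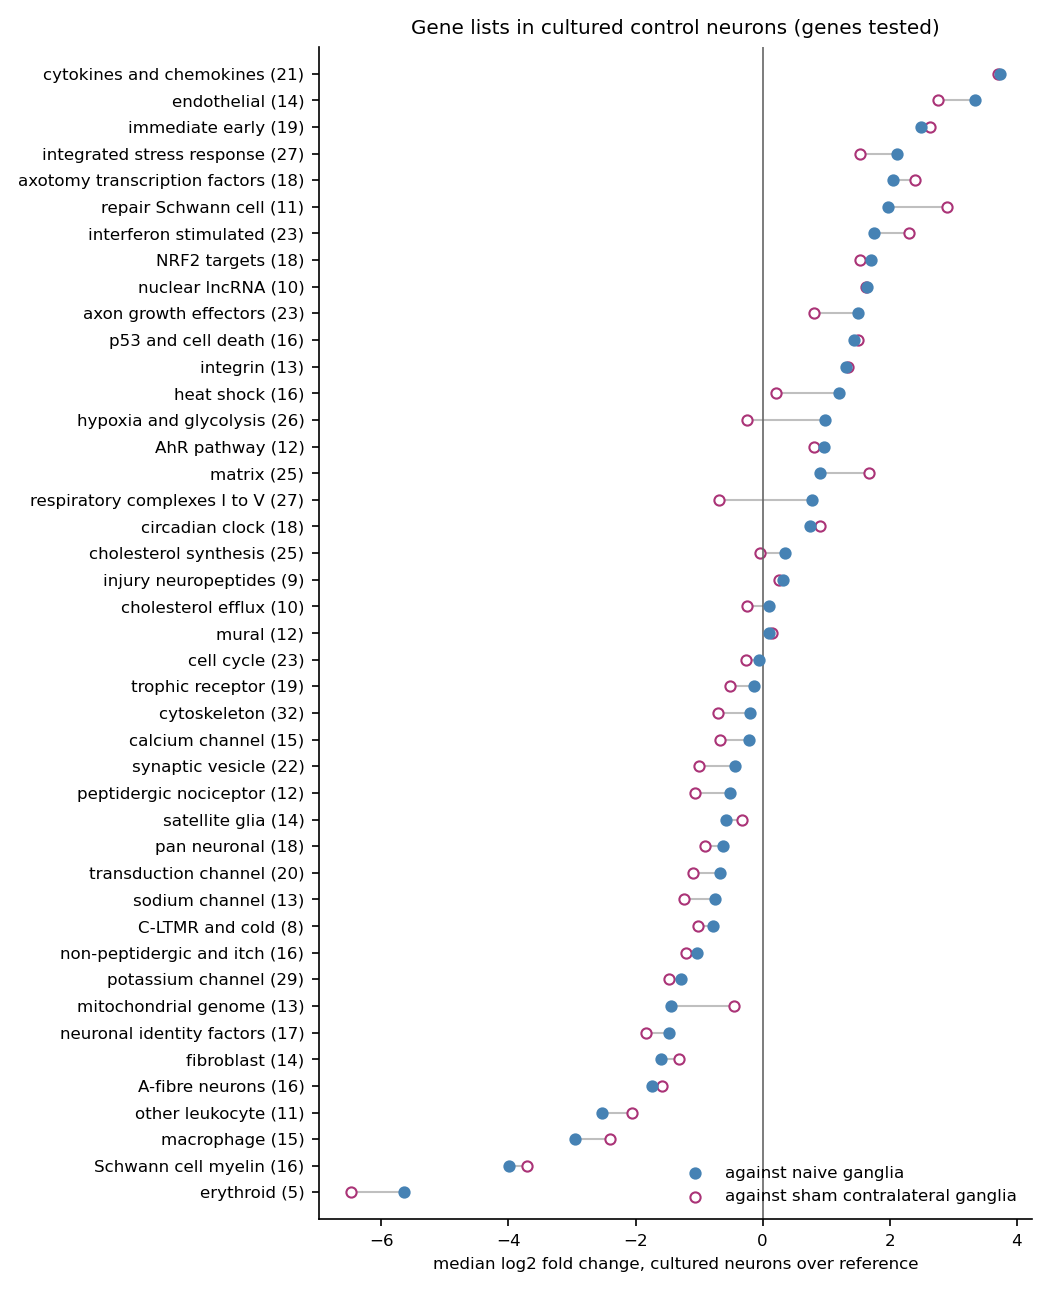
Median log2 fold change of each gene list in cultured control neurons, against naive ganglia (filled points, 3 libraries) and against sham contralateral ganglia (open points, 2 libraries), with the number of members tested. Most lists lie on the same side of 0 for both references; hypoxia and glycolysis (0.99 and -0.25), the respiratory complexes (0.77 and -0.68), cholesterol synthesis (0.35 and -0.0431) and cholesterol efflux (0.0951 and -0.25) do not.

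The identity of the cultured cells was checked first. Pan-neuronal markers were present in every cultured library: their summed level was 7124 to 8938 CPM in the neurons, 13490 to 15830 in naive and 17640 to 18980 in sham contralateral ganglia, and none of the 18 was at 0. Summed neuronal RNA was thus lower, relative to all counts, in the cultures labelled neurons than in whole ganglia, and the libraries did not overlap. Of the 18 markers, 10 fell against both references and 0 rose. The neurofilaments that fill large axons were among those that fell. Nefh, the heavy chain, read 1983, 2609 and 2237 CPM in naive ganglia and 447, 568 and 932 CPM in neurons (log2 fold change -1.81, SE 0.26, adjusted p 0.000261). Snap25, a part of the vesicle fusion machinery, read 972, 1138 and 1064 CPM against 332, 332 and 523 CPM (log2 fold change -1.42, SE 0.18, adjusted p 0.000152), and the RNA-binding protein gene Elavl4 read 306, 348 and 334 CPM against 77.8, 70.7 and 76.1 CPM (log2 fold change -2.13, SE 0.09, adjusted p 3.64e-07). For each of the 3 genes every cultured library lay below every ganglion library. Uchl1, Avil and Prph rose against naive ganglia (log2 fold changes 0.84, 1.33 and 0.66) but had log2 fold changes of -0.49, -0.46 and -0.63 against sham contralateral ganglia, so their direction depends on the reference. In bulk RNA, fewer cells of a type and less RNA per cell cannot be told apart, here and for every marker below.

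**Figure D2:**
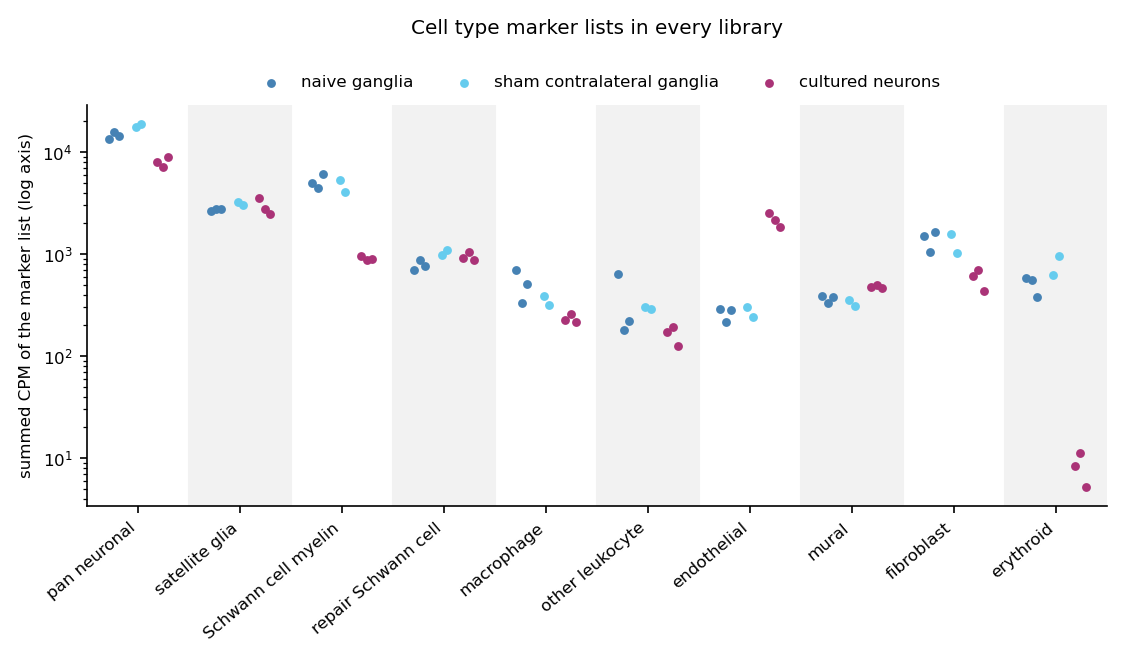
Summed CPM (log axis) of each cell type marker list in every naive, sham contralateral and cultured control library. Cultured libraries lie below the ganglia for neurons, Schwann cell myelin, macrophages, fibroblasts and erythroid cells, and above them for endothelial cells (1839 to 2497 against 214.9 to 290.1 in naive ganglia) and mural cells (459.9 to 497.2 against 329.2 to 391.2). For satellite glia 1 culture lies above all ganglia, 1 below all and 1 among them.

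Transcription factors that hold sensory neuron identity were mostly lower in culture. Of 17 tested, 13 fell and 1 rose against both references, and the median log2 fold change was -1.47 against naive and -1.83 against sham contralateral ganglia, beside -0.00933 and -0.0503 over all genes. Isl1, a pan-sensory homeodomain factor, read 83, 98.3 and 92.4 CPM in naive ganglia and 34.4, 38.2 and 41.9 CPM in neurons (log2 fold change -1.25, SE 0.10, adjusted p 9.1e-06). Its partner Pou4f1 (Brn3a) read 222, 272 and 249 CPM against 142, 127 and 129.6 CPM (log2 fold change -0.89, SE 0.10, adjusted p 5.61e-05). Both were lower in every cultured library than in any naive library. Factors of single neuron classes moved further: Etv1 and Runx3 of proprioceptors had log2 fold changes of -2.85 and -2.41, Shox2 and Mafa of touch neurons -2.58 and -2.52, and Hoxd1 of nociceptors -1.78. Shox2 counts include those of an overlapping gene. Runx1, which specifies non-peptidergic nociceptors, was the member that rose (88.9, 99.5 and 103 CPM in naive ganglia, 154, 139 and 128 CPM in neurons, log2 fold change 0.54).

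Genes that set the classes of sensory neuron apart included more lower than higher calls in each class. Of 16 genes of A-fibre neurons, the large myelinated touch and position-sense cells, 12 fell and 1 rose against both references (median -1.74 and -1.59). The calcium buffer Pvalb of proprioceptors read 69.4, 72.4 and 65.5 CPM in naive ganglia and 4.87, 11.3 and 46.5 CPM in neurons (log2 fold change -1.70, SE 0.66, adjusted p 0.0414). No cultured library reached the lowest naive one, but neuron replicate 3 stood well above the other 2. The call for Pvalb was lost without neuron replicate 1, without neuron replicate 2 and without any 1 naive library (adjusted p 0.0571 to 0.137), and without neuron replicate 3 its log2 fold change was -3.01. Replicate 3 was also the highest of the cultured libraries for Runx3 (1.35, 2.23 and 6.71 CPM), for Calb1 (3.49, 5.68 and 19.4 CPM) and for the neurotrophin-3 receptor Ntrk3 (54, 91.5 and 124 CPM). Without it, the log2 fold changes of Runx3, Shox2 and Calb1 were -3.30, -3.28 and -3.31. The median of the A-fibre list over the naive mean was -2.38 in replicate 1, -1.84 in replicate 2 and -0.913 in replicate 3, while the medians for the non-peptidergic list were -0.8, -1.13 and -1.04. The cultures therefore differed among themselves in A-fibre RNA more than in nociceptor RNA; what differed between the mice or dissections was not tested. Spp1, a secreted matrix protein that large neurons hold and glia can make after injury, rose (159, 176 and 179.8 CPM against 428, 514 and 343 CPM, log2 fold change 1.32).

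**Figure D3:**
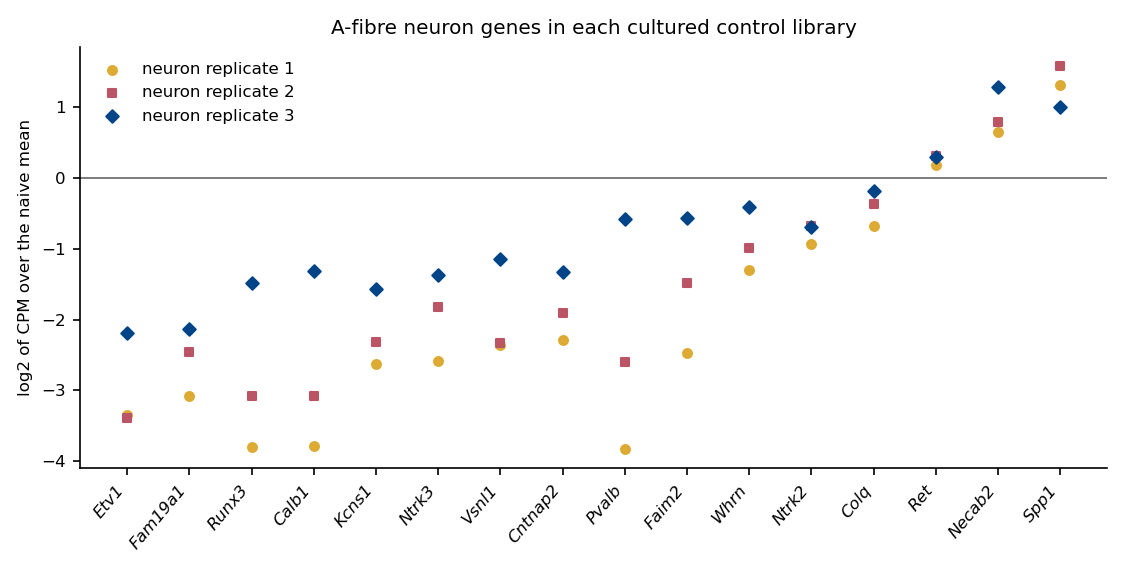
Level of each A-fibre gene in the 3 cultured control libraries as log2 of CPM over the mean of the 3 naive ganglia. Replicate 3 lies above the other cultured libraries for most of the genes that fell, by the widest margin for Pvalb (4.87, 11.3 and 46.5 CPM).

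Among nociceptors, 10 of 16 genes of the non-peptidergic and itch neurons fell and 2 rose against both references, and 8 of 12 genes of the peptidergic neurons fell and 1 rose. Mrgprd, a receptor of polymodal nociceptors, read 236, 251 and 243 CPM in naive ganglia and 59.5, 61.6 and 54.3 CPM in neurons (log2 fold change -2.05, SE 0.08, adjusted p 3.05e-07). The itch receptors Mrgpra3 and Mrgprx1 fell by a similar size (log2 fold changes -1.67 and -1.86), with no overlap between cultured and naive libraries. The peptides Calca (CGRP) and Tac1 (substance P) fell less (-0.48 and -0.55), and Calcb was not called (0.05, adjusted p 0.624). Neurotensin (Nts) and the oncostatin M receptor Osmr were the 2 members of the itch list that rose: Nts read 10.6, 10.2 and 9.3 CPM against 35.6, 44.9 and 51.2 CPM (log2 fold change 2.14, SE 0.14, adjusted p 3.22e-06). Of 8 genes of the low-threshold C-fibre and cold neurons, 5 fell and none rose against both references. The cold and menthol channel Trpm8 read 26.8, 36.1 and 37.5 CPM in naive ganglia, 55.9 and 54.7 CPM in sham contralateral ganglia and 1.31, 3.32 and 2.35 CPM in neurons (log2 fold change -3.77, SE 0.29, adjusted p 6.43e-06), far below every ganglion library.

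Sodium and potassium channel genes were mostly lower in culture. Of 29 potassium channel genes, 28 fell against naive ganglia and 24 against both references, and none rose (median -1.28 and -1.48). Kcna2, a Kv1 subunit that limits repetitive firing, read 511, 640.1 and 633 CPM in naive ganglia, 416 and 464 CPM in sham contralateral ganglia and 41.9, 62.6 and 102 CPM in neurons (log2 fold change -3.10, SE 0.30, adjusted p 2.6e-05). Neuron replicate 3 was again the highest of the cultures, still below every ganglion. Kcnb2, Kcnq5 and Kcnc1 fell by log2 values of -2.59, -2.48 and -2.37, and Kcnc2 was the 1 gene not called against naive ganglia (-0.07, adjusted p 0.525). The sodium channel Scn1a of large neurons read 134, 168 and 161 CPM against 10.7, 20.5 and 38.7 CPM (log2 fold change -2.71, SE 0.39, adjusted p 0.000288), and Scn8a and the auxiliary subunit Scn4b had log2 fold changes of -1.74 and -1.86. The nociceptor channel Scn10a fell slightly against naive ganglia and more against sham contralateral ganglia (-0.33 and -1.24). Scn3a, a channel of embryonic and axotomized sensory neurons, rose (4.63, 4.47 and 4.71 CPM against 8.8, 11.9 and 9.79 CPM, log2 fold change 1.15, SE 0.15, adjusted p 0.000126), with every cultured library above every naive one. Of 13 sodium channel genes, 9 fell and 1 rose against both references (10 and 2 against naive ganglia). Of 15 calcium channel genes, 7 fell and 0 rose against both references, and 7 fell and 6 rose against naive ganglia alone; Cacna2d1, the gabapentin-binding subunit, had a log2 fold change of -0.61 in culture and 0.96 after nerve crush. Of 20 transduction channels, 11 fell (Trpv1 -1.29, Trpm3 -2.45, Asic1 -1.97) and 2 rose (11 and 7 against naive ganglia). Those that rose against both were the heat and stretch channel Trpv2 (1.30) and the mechanosensitive channel Piezo1 (3.48); the reads of Piezo1 lie within the annotated span of a second gene and may not all be its own. Vesicle release genes followed: 13 of 22 fell and 1 rose, with Sv2b (-2.69) and Syt2 (-2.44) lowest. Pan-neuronal markers had medians of -0.625 against naive and -0.914 against sham contralateral ganglia. Sodium channels had -0.756 and -1.24, calcium channels -0.213 and -0.669, transduction channels -0.664 and -1.09, and vesicle genes -0.429 and -0.993. Potassium channels lay further below, at -1.28 and -1.48. Whether any list fell beyond neuronal RNA as a whole was not tested.

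Genes of the axotomy program were high in the cultures, and which cells made their RNA was not tested. Of 18 transcription factors linked to axotomy and regeneration, 16 rose and none fell against both references (median 2.05 and 2.40). Values for the same genes in ganglia taken 1 day after the sciatic nerve was crushed are set beside them. They come from 3 control mice (2 Ahr fl/+ females, 1 Ahr fl/fl male), against the same naive ganglia, so the 2 contrasts share the naive libraries. The crush mice had the tamoxifen course and age of the naive mice. Crush changed 4601 of 21261 genes (21.6%), 2744 higher (12.9%) and 1857 lower (8.73%; 1181 without crush replicate 1 and 1186 without crush replicate 2), and called 15 of the 18 factors higher. Atf3 (ENSMUSG00000026628.13, chr1:191170296-191218039, minus strand), a stress-induced factor and the classical marker of an axotomized sensory neuron, read 13.7, 12.5 and 12.1 CPM in naive ganglia, 12.8 and 12.5 CPM in sham contralateral ganglia, 659, 699 and 556 CPM after crush and 798, 761 and 864 CPM in neurons. Cultured and crushed ganglia lay far above all uninjured ganglia, and the cultures lay above every crush library. The log2 fold change over naive ganglia was 5.99 (SE 0.11) in culture (adjusted p 7.87e-08) and 5.64 after crush. Sox11, a factor of developing and regrowing neurons, read 8.23, 10.6 and 9.1 CPM in naive ganglia, 98.8, 107 and 84.1 CPM after crush and 97.2, 77.8 and 89.5 CPM in neurons (log2 fold change 3.25, SE 0.13, adjusted p 3.54e-07). The culture and crush libraries overlapped for Sox11, and both stood clear of the naive ganglia. Jun, the AP-1 subunit that drives the response to axotomy, had log2 fold changes of 2.16 in culture and 1.94 after crush, and the growth-arrest gene Gadd45a had 2.93 and 3.24.

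Immediate early genes were high in culture. All 19 tested rose in culture against naive ganglia and 18 rose against both references (median 2.49 and 2.64), while crush called 8 of 17 (median 0.40). Fosl1, an AP-1 subunit (Fra-1), read 2.27, 2.3 and 2.06 CPM in naive ganglia, 2.3 and 1.98 CPM in sham contralateral ganglia, 3.45, 3.75 and 3.21 CPM after crush and 179, 146 and 134 CPM in neurons (log2 fold change 6.12, SE 0.16, adjusted p 1.1e-07). The cultured libraries alone were high. Fos and Fosb had log2 fold changes of 3.78 and 4.92 in culture (4.44 for Fos without naive replicate 1) against 0.12 and -0.10 after crush, where neither was called. Egr1, a zinc-finger immediate early factor, read 39, 15.5 and 19.1 CPM in naive ganglia, 19.1, 19.6 and 15.1 CPM after crush and 221, 182 and 176 CPM in neurons. The direct test of neurons against crush ganglia, which also come from different tables, gave a log2 fold change of 3.43 for Egr1 (adjusted p 2.04e-06), 3.66 for Fos (adjusted p 3.06e-06) and 5.47 for Fosl1 (adjusted p 5.48e-10). That test called 17291 of 21676 genes (79.8%). Npas4, which neuronal activity induces, had 3 counts in all naive libraries together and 163 in the cultures, a ratio of CPM of 20.8 (95% counting interval 6.998 to 102). Its fitted log2 fold change was 3.83 without naive replicate 1 and 5.24 without naive replicate 3.

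Effectors of axon growth went both ways in culture. Of 23 tested, 12 rose and 4 fell against both references (17 and 4 against naive ganglia), whereas crush called 18 of 24 higher and none lower. Sprr1a (ENSMUSG00000050359.7, chr3:92483952-92485895, minus strand), a small proline-rich protein that promotes axon outgrowth, read 0.557, 0.723 and 1.39 CPM in naive ganglia, 37.7, 41.9 and 33.7 CPM after crush and 36.8, 54.6 and 66.6 CPM in neurons (log2 fold change 5.88, SE 0.34, adjusted p 1.52e-06). Cultured libraries lay in and above the crush range, far above all naive ones. Its promoter is shown because an AP-1 factor led each of the 2 lists above; the RefSeq window runs from 250 bases before to 50 bases after the start (chr3:92485832-92486131, minus strand, GRCm38.p6), and capitals mark matches to the AP-1 consensus TGANTCA on either strand (a match that reads the same on both strands is counted once).
Sprr1a: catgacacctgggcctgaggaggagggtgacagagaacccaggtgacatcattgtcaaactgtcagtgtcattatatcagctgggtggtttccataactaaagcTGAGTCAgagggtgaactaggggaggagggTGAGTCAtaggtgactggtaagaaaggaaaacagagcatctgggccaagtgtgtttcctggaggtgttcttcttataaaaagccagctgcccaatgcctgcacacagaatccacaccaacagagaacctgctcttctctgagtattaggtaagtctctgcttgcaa
The window held 2 matches. TGANTCA was found in 7.81% of 32851 mouse promoter windows of this length in 3 of 15 windows of the growth effector genes, in 2 of 16 of the axotomy factors and in 0 of 21 of the immediate early genes, so a match there describes the letters and is no evidence that a factor was bound. Among the other effectors that rose, Ecel1, an axotomy-induced membrane peptidase, read 0.514, 0.979 and 0.712 CPM in naive ganglia, 5.71, 7.28 and 4.64 CPM after crush and 78.6, 144 and 132 CPM in neurons (log2 fold change 7.33, SE 0.32, adjusted p 4.66e-07). Every cultured library was above every crush library. The adhesion protein Flrt3, the semaphorin Sema6a and the urokinase receptor Plaur had log2 fold changes of 3.66, 4.28 and 4.31 in culture and 3.63, 3.27 and 2.70 after crush. The members that fell were growth-cone and microtubule genes. Gap43 (ENSMUSG00000047261.9, chr16:42248442-42340651, minus strand), the growth-cone phosphoprotein, read 198, 228 and 198 CPM in naive ganglia, 235 and 239 CPM in sham contralateral ganglia, 282, 301 and 284 CPM after crush and 68.1, 79.8 and 72.4 CPM in neurons. It rose after crush (log2 fold change 0.48) and fell in culture (log2 fold change -1.50, SE 0.10, adjusted p 2.55e-06), with the cultured libraries below every ganglion; neurons against crush ganglia gave -1.97 (adjusted p 1.22e-08). Stmn2, Dpysl2 and Dpysl3, which act on growth-cone microtubules, also fell (-0.57, -0.84 and -0.61). Beside these falls the summed pan-neuronal level was lower in the cultures as well, as given above.

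Neuropeptides and trophic factors that injured neurons make were called after crush and in culture as follows. Crush called 7 of 10 injury peptides higher. Culture called 3 of 9 higher and 1 lower against both references (4 and 1 against naive ganglia), beside 25.9% and 24.5% of all genes. In cultures of conditional Ahr knockout mice, described further down, 7 of 11 were higher and 0 lower against both of their references. These counts cover different numbers of members, and the test of the difference between genotypes called none of these peptides. Bdnf, a neurotrophin that nociceptors release, read 56.9, 55.9 and 56.4 CPM in naive ganglia, 196, 168 and 166 CPM after crush and 25.3, 31.2 and 34 CPM in neurons (log2 fold change -0.89, SE 0.11, adjusted p 0.000106 in culture). The 3 groups did not overlap, with crush highest and culture lowest, and neurons against crush ganglia gave a log2 fold change of -2.54 (adjusted p 1.37e-08). Adcyap1, which encodes the peptide PACAP, rose after crush (log2 fold change 2.17) and was not called in culture (0.32, adjusted p 0.275; called without neuron replicate 1, 0.57, adjusted p 0.0318). Galanin (Gal) rose against naive ganglia (2.02) but not against sham contralateral ganglia (0.26, adjusted p 0.143). Urocortin (Ucn) had 3 counts in all naive libraries and 749 in the cultures, a ratio of CPM of 95.65 (95% counting interval 32.6 to 464.8). With so few naive counts its fitted log2 fold change was 7.47 without naive replicate 1 and 5.94 without naive replicate 3. Of 19 trophic receptor genes, 8 fell and 6 rose. Among those that fell were the neurotrophin receptors Ntrk2, Ntrk3 and Ngfr and the GDNF-family receptors Gfra1 to Gfra4. Gfra1 read 180.3, 212 and 206 CPM in naive ganglia and 72.9, 88 and 121 CPM in neurons (log2 fold change -1.08, SE 0.18, adjusted p 0.000555), without overlap, and rose after crush (1.33). The members that rose were Met, the hepatocyte growth factor receptor (3.64), Insr (1.53), Fgfr1 (1.23), Osmr (0.93), Igf1r (0.64) and the shared cytokine receptor Il6st (0.37).

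**Figure D4:**
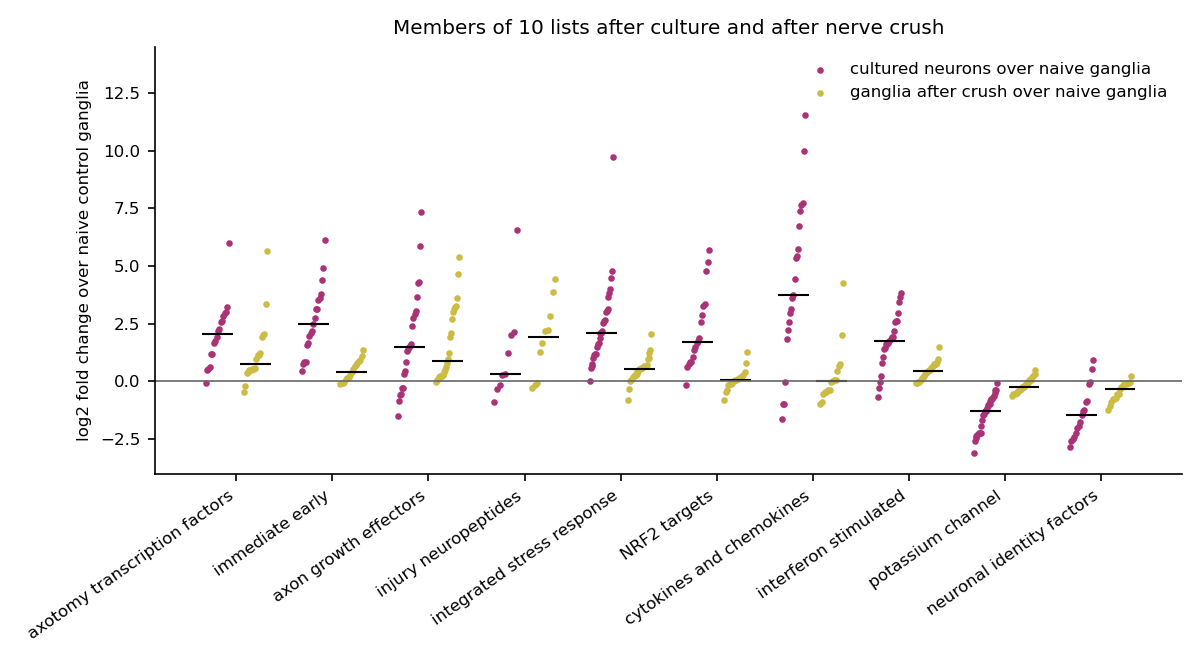
Log2 fold change over naive control ganglia of each tested member of 10 lists, in cultured neurons and in ganglia 1 day after nerve crush, with the median as a bar. Both contrasts use the same naive libraries. Medians for culture and crush are 2.05 and 0.77 for the axotomy transcription factors, 2.49 and 0.40 for immediate early genes, and 0.32 and 1.91 for the injury neuropeptides.

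Cytokines and chemokines were high in culture. Of 21 tested, 17 rose and 1 fell against both references (median 3.73 and 3.70), while crush called 3 of 16 higher and 1 lower. Cxcl1, Cxcl2 and Cxcl3, neighbouring genes on chromosome 5 for chemokines that attract neutrophils, were close to absent from the ganglia. Their promoters are shown because these are the classical targets of NF-kappaB; capitals mark matches to the NF-kappaB core GGNNTTNCC on either strand in the same RefSeq windows (GRCm38.p6): Cxcl1 at chr5:90890995-90891294, plus strand; Cxcl2 at chr5:90903649-90903948, plus strand; Cxcl3 at chr5:90785851-90786150, plus strand.
Cxcl1: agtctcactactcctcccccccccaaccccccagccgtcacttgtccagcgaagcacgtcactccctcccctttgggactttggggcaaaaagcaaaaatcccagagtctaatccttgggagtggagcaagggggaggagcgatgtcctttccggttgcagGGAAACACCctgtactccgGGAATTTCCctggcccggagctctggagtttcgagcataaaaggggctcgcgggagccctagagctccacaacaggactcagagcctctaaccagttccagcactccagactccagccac
Cxcl2: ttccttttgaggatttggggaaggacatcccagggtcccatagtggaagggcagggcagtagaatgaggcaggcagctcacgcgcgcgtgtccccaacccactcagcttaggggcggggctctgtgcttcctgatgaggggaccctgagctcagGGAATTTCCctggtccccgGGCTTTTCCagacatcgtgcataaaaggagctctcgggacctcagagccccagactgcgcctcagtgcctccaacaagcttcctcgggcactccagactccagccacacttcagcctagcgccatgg
Cxcl3: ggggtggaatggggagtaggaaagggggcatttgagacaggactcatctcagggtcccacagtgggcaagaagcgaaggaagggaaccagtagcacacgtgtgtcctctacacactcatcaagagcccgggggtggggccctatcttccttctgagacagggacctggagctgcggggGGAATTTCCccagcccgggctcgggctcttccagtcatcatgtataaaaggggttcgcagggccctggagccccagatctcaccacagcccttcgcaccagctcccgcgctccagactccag
Cxcl1 and Cxcl2 held 2 matches each and Cxcl3 held 1. The same letters were found in 15.96% of all 32851 windows and in 6 of 16 windows of the cytokine list. Cxcl1 (ENSMUSG00000029380.11, chr5:90891241-90893115, plus strand) read 0.172, 0 and 0.317 CPM in naive ganglia, 0.0761 and 0.122 CPM in sham contralateral ganglia, 0.454, 0.223 and 0.134 CPM after crush and 228, 148 and 137 CPM in neurons (log2 fold change 9.99, SE 0.44, adjusted p 4.67e-07; 9.40 without naive replicate 2, 10.89 without naive replicate 3). Cxcl2 had 2 counts in the naive libraries together and 15400 in the cultures, a ratio of CPM of 2950 (95% counting interval 816.5 to 24360). For Cxcl3 the counts were 1 and 3525, a ratio of 1350 (242.2 to 53350), and the fitted log2 fold change was 12.82 without naive replicate 1. In each of the 3 genes every cultured library was high and every ganglion library near 0. Csf3, the granulocyte growth factor, had no count in any naive library and read 31.8, 25.8 and 15.3 CPM in neurons, at least 538.6-fold higher against a floor of 3 counts over the naive group.

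The neuropoietic cytokines, which signal through Il6st to Stat3, rose as well. Il6 read 0.386, 0.255 and 0.0396 CPM in naive ganglia, 5.13, 4.42 and 3.57 CPM after crush and 54.7, 53.5 and 36.7 CPM in neurons (log2 fold change 7.75, SE 0.36, adjusted p 6.05e-07). Lif, leukaemia inhibitory factor, read 1.11, 0.638 and 1.19 CPM in naive ganglia, 1.41, 0.447 and 1.25 CPM after crush and 215, 230.5 and 153 CPM in neurons (log2 fold change 7.66, SE 0.25, adjusted p 1.86e-07). Il6 rose in both settings (crush 4.26), and for Lif the crush ganglia lay with the naive ones (crush 0.08, adjusted p 0.91). Il11 and Clcf1 had log2 fold changes of 6.72 and 5.36, and Csf1, the macrophage growth factor that axotomized neurons make, 3.73 in culture and 2.01 after crush. The monocyte chemokine Ccl2 read 1.5, 1.02 and 1.27 CPM in naive ganglia and 69.8, 74.7 and 56.5 CPM in neurons (log2 fold change 5.73, SE 0.17, adjusted p 1.58e-07), without overlap. Cxcl12, a chemokine of stromal cells, was the member that fell (-1.63). Of 23 interferon-stimulated genes, 18 rose and 0 fell against both references (median 1.75 and 2.31). Rsad2 (viperin) read 17.4, 14.1 and 15.4 CPM in naive ganglia and 297, 184 and 189 CPM in neurons (log2 fold change 3.84, SE 0.22, adjusted p 1.38e-06). Oas1a, Mx2 and Isg15 had log2 fold changes of 3.64, 3.43 and 2.98. Macrophage RNA moved the other way beside these rises: the summed macrophage markers read 213.5 to 260.5 CPM in the cultures and 329.4 to 702.3 CPM in naive ganglia, and none of the 15 was at 0. Which cells of the culture made the cytokines was not tested.

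The integrated stress response, in which the factor Atf4 induces amino acid synthesis and transport, was high in culture. Of 27 genes tested, 23 rose and none fell against both references (median 2.12 and 1.54), and after crush 19 of 26 rose with a median of 0.52. The promoters of Chac1 (chr2:119350992-119351291, plus strand) and Slc7a11 (chr3:50443564-50443863, minus strand) are shown as examples, with capitals on matches to the CHOP and Atf4 composite element TGATGNAA on either strand (RefSeq windows, GRCm38.p6).
Chac1: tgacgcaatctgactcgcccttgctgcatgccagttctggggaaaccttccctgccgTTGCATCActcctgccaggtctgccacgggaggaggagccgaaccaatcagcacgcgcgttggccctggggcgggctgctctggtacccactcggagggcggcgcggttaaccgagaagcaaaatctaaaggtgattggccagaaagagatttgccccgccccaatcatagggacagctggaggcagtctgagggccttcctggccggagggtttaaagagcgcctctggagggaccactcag
Slc7a11: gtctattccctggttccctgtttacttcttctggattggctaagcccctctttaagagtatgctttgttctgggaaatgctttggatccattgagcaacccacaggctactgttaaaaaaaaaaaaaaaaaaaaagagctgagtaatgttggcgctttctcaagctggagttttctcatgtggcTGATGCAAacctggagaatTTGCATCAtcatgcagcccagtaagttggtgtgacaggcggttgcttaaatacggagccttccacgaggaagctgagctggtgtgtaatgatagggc
Chac1 held 1 match and Slc7a11 held 2. The element was found in 3.97% of all windows and in 8 of 26 windows of the list. Chac1 (ENSMUSG00000027313.3, chr2:119351229-119354381, plus strand), which degrades glutathione, read 6.47, 7.36 and 6.93 CPM in naive ganglia, 9.61 and 9.57 CPM in sham contralateral ganglia, 28.2, 32.2 and 27 CPM after crush and 94.6, 101 and 101 CPM in neurons (log2 fold change 3.84, SE 0.09, adjusted p 1.1e-07). The 3 states stood apart, with crush between ganglia and cultures. Slc7a11 (ENSMUSG00000027737.10, chr3:49892526-50443614, minus strand), the cystine transporter that feeds glutathione synthesis, read 19.3, 4.89 and 11.7 CPM in naive ganglia, 2.78 and 1.93 CPM in sham contralateral ganglia, 5.49, 5.54 and 9.23 CPM after crush and 364, 328 and 282 CPM in neurons (log2 fold change 4.77, SE 0.43, adjusted p 1.66e-05). Here the naive libraries varied widely among themselves and the cultures were still far above them. Gdf15, a secreted stress hormone, read 0.257, 0.17 and 0.198 CPM in naive ganglia and 221, 168 and 143 CPM in neurons (log2 fold change 9.72, SE 0.28, adjusted p 1.28e-07). Atf4 and Ddit3 (CHOP) had log2 fold changes of 1.62 and 2.17, the Atf4 inhibitor Trib3 3.00 and the mTOR inhibitor Sesn2 3.65. The tRNA synthetase genes depended more on the reference: Aars, Gars and Sars had 2.63, 2.08 and 1.68 against naive and 1.21, 0.56 and 0.47 against sham contralateral ganglia.

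Targets of NRF2 (Nfe2l2), the factor of the oxidative stress response, were high in culture. Of 18 tested, 14 rose and none fell against both references (median 1.70 and 1.54), whereas crush called 3 higher and 1 lower (median 0.0758). Haem oxygenase, Hmox1 (ENSMUSG00000005413.8, chr8:75093621-75100589, plus strand), read 32.2, 28.9 and 28.5 CPM in naive ganglia, 40 and 42.3 CPM in sham contralateral ganglia, 38.4, 32.3 and 35.5 CPM after crush and 1961, 1334 and 1400 CPM in neurons (log2 fold change 5.72, SE 0.19, adjusted p 1.86e-07). The cultures alone were high, replicate 1 most, and the direct test of neurons against crush ganglia gave a log2 fold change of 5.47 (adjusted p 1.84e-09). Nqo1, a quinone reductase that both NRF2 and AhR induce, read 15.3, 15.5 and 15 CPM in naive ganglia and 144, 159.5 and 135 CPM in neurons (log2 fold change 3.26, SE 0.09, adjusted p 1.26e-07). Osgin1, Txnrd1 and Prdx1 had log2 fold changes of 5.18, 2.89 and 2.56. Among 16 heat shock genes, 15 rose against naive ganglia and 7 against both references, so the list as a whole turned on the reference (median 1.21 and 0.21). The inducible Hsp70 genes were above both: Hspa1a read 4.89, 5.15 and 4.87 CPM in naive ganglia, 4.6 and 4.34 CPM in sham contralateral ganglia and 182, 73.9 and 52.7 CPM in neurons (log2 fold change 4.37, SE 0.48, adjusted p 5.71e-05; 3.69 without neuron replicate 1, the highest). Hspa5 (BiP), the chaperone of the endoplasmic reticulum, had log2 fold changes of 1.82 and 1.62, while the constitutive Hspa8 had 2.11 and -0.20. Of 16 genes of p53 signalling and cell death, 13 rose and 2 fell: the cell cycle inhibitor Cdkn1a read 90.8, 86 and 101 CPM in naive ganglia and 842, 673 and 647 CPM in neurons (log2 fold change 2.96, SE 0.13, adjusted p 4.97e-07), the death receptor Tnfrsf10b had a log2 fold change of 5.12 and the survival gene Bcl2 -2.21.

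The receptor named in the study's title was examined with its pathway. Of 12 genes, 6 rose and none fell against both references. Ahr read 18, 22.5 and 22.8 CPM in naive ganglia, 15.2 and 14.2 CPM in sham contralateral ganglia and 54.9, 52.7 and 44.8 CPM in neurons (log2 fold change 1.27, SE 0.12, adjusted p 2.55e-05), and its dimer partners Arnt and Arnt2 had log2 fold changes of 1.73 and 0.74. The classical target is Cyp1a1, a cytochrome P450 that ligand-bound AhR induces through the core element GCGTG; its RefSeq window (chr9:57697363-57697662, plus strand, GRCm38.p6) is shown with matches on either strand in capitals.
Cyp1a1: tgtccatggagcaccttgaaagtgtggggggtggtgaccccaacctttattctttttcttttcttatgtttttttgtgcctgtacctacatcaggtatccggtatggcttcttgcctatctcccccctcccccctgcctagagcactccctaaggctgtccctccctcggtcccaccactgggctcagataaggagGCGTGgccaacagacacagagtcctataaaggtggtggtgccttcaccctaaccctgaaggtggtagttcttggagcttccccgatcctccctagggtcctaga
The window held 1 match, near the start, and GCGTG was found in 32.4% of all 32851 windows and in 6 of 8 windows of the pathway list. A match is no evidence that AhR was bound. The RefSeq start lies 9685 bases from the outermost start in the gene annotation of the counts. Cyp1a1 (ENSMUSG00000032315.6, chr9:57687928-57703824, plus strand) read 0.257, 0.511 and 0.554 CPM in naive ganglia, 0.323 and 0.366 CPM in sham contralateral ganglia, 0.318, 0.357 and 0.268 CPM after crush and 379.7, 402 and 322 CPM in neurons (log2 fold change 9.69, SE 0.20, adjusted p 1.1e-07; 10.03 against sham contralateral ganglia). The cultures were high in all 3 libraries and every ganglion library was below 1 CPM. In neurons of the conditional knockout (cKO) mice, whose Ahr was to be deleted in Thy1-expressing cells, it read 258, 337 and 289.7 CPM against 0.435, 0.393 and 0.296 CPM in naive cKO ganglia (log2 fold change 9.61). Other targets went different ways. Cyp1b1 fell against naive and was not called against sham contralateral ganglia (log2 fold changes -0.89 and 0.12), the AhR repressor Ahrr fell slightly against naive ganglia (-0.47), and Aldh3a1 was not called (0.81, adjusted p 0.102). Both rest on single libraries: Ahrr was not called without neuron replicate 1 or without neuron replicate 3 (adjusted p 0.0622 and 0.0978), and Aldh3a1 was called without naive replicate 1 (1.29, adjusted p 0.0177). Tiparp, an AhR-induced ADP-ribosyltransferase, rose against both references (1.20 and 2.29).

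Clock genes were shifted too. Of 18 tested, 12 rose and 3 fell against both references. Per1, which stress and serum induce, read 9.56, 20.2 and 28.5 CPM in naive ganglia and 115, 128 and 119 CPM in neurons (log2 fold change 2.64, SE 0.32, adjusted p 0.000106), and Cry1, Per2 and Arntl had log2 fold changes of 2.13, 1.99 and 1.62. The output factors Hlf and Tef fell (-2.99 and -0.74), and Dbp was not called (0.12, adjusted p 0.414). The labels give a collection hour for the ganglia but none for the end of culture.

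Glial RNA separated by cell type. Myelin genes of Schwann cells were low: 14 of 16 fell against both references (median -3.99 and -3.70), and their summed level was 881 to 959.8 CPM in the cultures against 4465 to 6013 CPM in naive ganglia. Cldn19, a tight junction gene of Schwann cells, read 58.3, 59.1 and 84.2 CPM in naive ganglia, 63.9 and 36.4 CPM in sham contralateral ganglia and 0.713, 0.811 and 0.732 CPM in neurons (log2 fold change -6.45, SE 0.20, adjusted p 1.58e-07), with every culture far below every ganglion. Prx, which organizes the sheath, had a log2 fold change of -5.29. Egr2, which drives myelination and is also an immediate early gene, was the member that rose (0.75); without naive replicate 1 or 2, or neuron replicate 1 or 2, it was not called (adjusted p 0.059 to 0.114). Genes of repair Schwann cells, the state these cells enter after nerve injury, moved both ways, 8 of 11 rising and 2 falling against both references. Their summed level was 880 to 1043 CPM in the cultures, 693.5 to 872.2 CPM in naive and 984.4 to 1092 CPM in sham contralateral ganglia, so it was above the first only and overlapped the second. Gdnf, a survival factor for sensory neurons, read 0.386, 0.511 and 0.237 CPM in naive ganglia and 46.4, 43.9 and 41.1 CPM in neurons (log2 fold change 6.86, SE 0.19, adjusted p 1.26e-07). Tnc, a matrix protein of injured nerve, read 3.81, 2.6 and 2.38 CPM against 273, 335 and 229 CPM (log2 fold change 6.58, SE 0.23, adjusted p 2.01e-07). In crushed ganglia the log2 fold changes of Gdnf and Tnc were 1.01 and 0.17. Shh and Ngfr were the members that fell (-1.17 and -1.16).

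Satellite glia markers did not move together. Their summed level overlapped between the groups, at 2488 to 3551 CPM in the cultures and 2640 to 2773 CPM in naive ganglia, with 4 of 14 higher and 7 lower against both references. Fabp7, a fatty acid binding protein of satellite glia, read 144, 120.4 and 119 CPM in naive ganglia and 6.86, 5.19 and 5.61 CPM in neurons (log2 fold change -4.46, SE 0.14, adjusted p 1.69e-07). Kcnj10, their potassium channel (Kir4.1), read 114, 129 and 123 CPM against 6.78, 8.47 and 6.41 CPM (log2 fold change -4.07, SE 0.13, adjusted p 1.58e-07). The opposite held for Gja1 (connexin 43), at 60.7, 43.8 and 58.3 CPM against 318, 286 and 224 CPM (log2 fold change 2.35, SE 0.17, adjusted p 5.03e-06), and for the endothelin receptor Ednrb (2.17) and the glial factor Sox10 (1.28).

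Blood, immune and vessel cells were also unequally represented. Red cell RNA was nearly absent from the cultures, at 5.142 to 11.2 CPM summed over 5 genes against 382.4 to 582.9 CPM in naive ganglia. The complement genes of resident macrophages fell furthest among the macrophage markers: C1qa read 39.1, 27.5 and 44.5 CPM in naive ganglia and 0.159, 0.251 and 0.117 CPM in neurons (log2 fold change -7.60, SE 0.30, adjusted p 3.08e-07), and C1qc and Cd163 had log2 fold changes of -8.18 and -5.65 (-6.24 for Cd163 without neuron replicate 2). Of the 15 markers 11 fell and 3 rose against both references; those that rose were Cd14 (2.58), the lysosomal Cd68 (1.71) and Cx3cr1 (0.97). Endothelial genes rose, and 13 of 14 were higher against both references (median 3.35 and 2.76). Pecam1 (CD31) read 35, 28 and 35.1 CPM in naive ganglia, 33.7 and 27.7 CPM in sham contralateral ganglia and 409, 334 and 286 CPM in neurons (log2 fold change 3.39, SE 0.16, adjusted p 6.59e-07). Emcn, an endothelial sialomucin, read 10.6, 6.76 and 7.88 CPM against 289, 259 and 222 CPM (log2 fold change 4.93, SE 0.19, adjusted p 2.9e-07), and the vessel genes Robo4, Erg and Cdh5 had log2 fold changes of 4.28, 3.85 and 3.73. Each of these was high in all 3 cultures. Of 12 mural cell markers 4 rose and 2 fell, with a summed level of 459.9 to 497.2 CPM in the cultures, 329.2 to 391.2 CPM in naive and 310.5 to 356.3 CPM in sham contralateral ganglia, and of 14 fibroblast markers 9 fell and 2 rose. The endothelial list had the most members higher of all cell type lists in these cultures labelled as semi-purified neurons, and its part in the rises of cytokine, interferon and matrix genes was not tested.

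**Figure D5:**
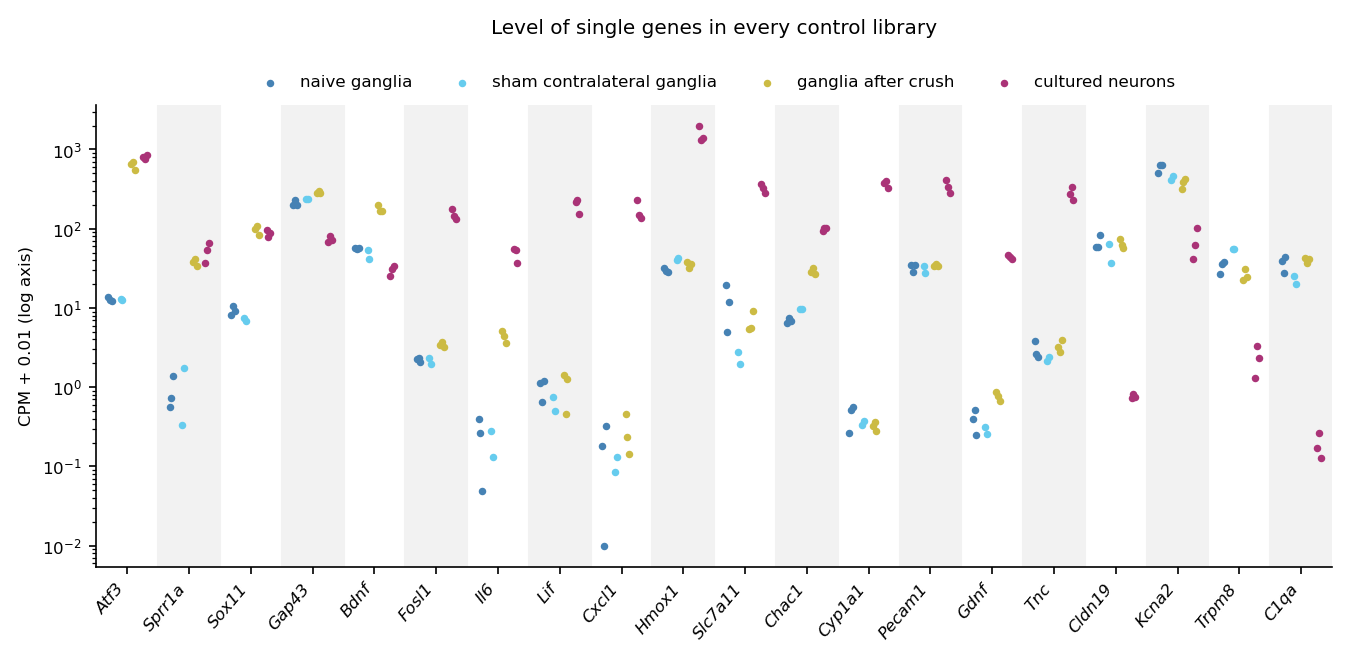
CPM + 0.01 (log axis) of 20 genes in each naive, sham contralateral, crush and cultured control library. Atf3, Sprr1a and Sox11 were high after crush and in culture. Gap43 and Bdnf were both above naive ganglia after crush and below them in culture. Fosl1, Hmox1, Slc7a11, Cyp1a1, Pecam1 and Tnc were high in culture alone.

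Matrix genes were mostly higher in culture. Of 25 tested, 16 rose and 4 fell against both references. Of the basement membrane, the sheet under endothelium and around glia, the collagen IV chain Col4a1 read 41.4, 33.1 and 52.6 CPM in naive ganglia and 967, 754 and 541 CPM in neurons (log2 fold change 4.16, SE 0.26, adjusted p 2.41e-06), the laminin chains Lama4, Lama5 and Lamc1 had log2 fold changes of 3.52, 4.18 and 3.02, and perlecan (Hspg2) 3.33. The collagen genes Col1a2, Col3a1 and Col6a2 of connective tissue fell (-1.22, -1.16 and -1.84). Of 13 integrins, the receptors for these proteins, 9 rose and 1 fell. The fibronectin receptor subunit Itga5 read 5.79, 5.23 and 6.89 CPM in naive ganglia and 134, 148 and 112 CPM in neurons (log2 fold change 4.46, SE 0.15, adjusted p 1.85e-07). Itga7, a laminin receptor subunit of regrowing neurons, read 68.1, 79.3 and 80.5 CPM in naive ganglia, 295, 329 and 250.1 CPM after crush and 421, 567 and 552 CPM in neurons (log2 fold change 2.76, SE 0.14, adjusted p 7.08e-07). For both genes all cultures exceeded all ganglia. Itga4 was the subunit that fell (-3.07).

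The remaining lists are given together, and several housekeeping lists among them turned on the reference. Of 27 genes of the respiratory complexes, 23 rose against naive ganglia and 0 rose against both references (median 0.77 and -0.68). Cox5b, a cytochrome oxidase subunit, read 14.8, 14.1 and 13.2 CPM in naive ganglia, 167 and 184 CPM in sham contralateral ganglia and 117, 85.3 and 102 CPM in neurons, above the first and below the second. Of 26 genes of hypoxia and glycolysis, 16 rose and 5 fell against naive ganglia, and 5 rose and 4 fell against both references. Those that rose against both were the glucose transporter Slc2a1 (3.10), Hk2 (2.75), Vegfa (1.64), Adm (2.26) and Hif1a (1.61). Of 13 mitochondrial genome transcripts, 9 fell against naive ganglia and 2 against both. Cholesterol synthesis had 7 higher and 4 lower of 25 against both references, and cholesterol efflux 2 and 2 of 10, with the transporter Abca1 at 1.73. Cytoskeletal genes had 14 lower and 4 higher of 32 (14 and 11 against naive ganglia); those that rose were the tubulins Tuba1c (2.06) and Tubb6 (2.08), Stmn4 (3.05) and the dynein heavy chain Dync1h1 (2.12). Cell cycle genes had 6 higher and 6 lower of 23, near the shares over all genes, so the list was not set apart. Among them, Mki67 and Top2a of dividing cells fell (-2.26 and -2.39, or -1.08 and -1.55 without naive replicate 1). Pcna, Mcm3 and Mcm6 of DNA replication rose (2.37, 2.28 and 2.05). Of 10 nuclear long noncoding RNAs, 8 rose, counting Xist, for which the male sham ganglia are no reference; Malat1 was among them (3.36 against naive and 4.24 against sham contralateral ganglia). Of 11 markers of other leukocytes, 7 fell and 1 rose against both references, although the summed level of the list, 124.3, 172.9 and 190.2 CPM in the cultures, overlapped that of naive ganglia (641.6 in replicate 1, 177.7 and 221.1 in the others), with the neutrophil genes S100a8 and S100a9 at -3.40 and -3.27 (-2.33 and -2.11 without naive replicate 1, -4.84 and -4.61 without neuron replicate 2).

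Of the genes called beyond 2-fold, the 8 smallest p in either direction included genes whose size of change the reference decides. Among those that rose, Tnfrsf12a, the receptor Fn14 that is induced in injured neurons, read 8.74, 8.08 and 8.31 CPM in naive ganglia, 9.82 and 9.98 CPM in sham contralateral ganglia and 266, 244 and 233 CPM in neurons (log2 fold change 4.89, SE 0.10, adjusted p 9.43e-08), and the injury-induced regulator Ifrd1 read 12.1, 9.66 and 11.2 CPM, 10.5 and 10.1 CPM and 334, 312 and 339 CPM (log2 fold change 4.91, SE 0.11, adjusted p 1.1e-07). For both, all ganglia were low and all cultures high. Adrm1, a proteasome ubiquitin receptor, and the ribosomal genes Rpl10a and Rps12 had log2 fold changes of 4.61, 5.11 and 5.51 against naive ganglia and 0.48, 0.25 and 0.35 against sham contralateral ganglia. Atf3, Cyp1a1 and Chac1, given above, complete the 8. Among those that fell, Cldn19, Mbp (-4.02), Kcnj10 and Fabp7 are glial genes, and A3galt2, a glycosyltransferase, read 84.2, 84 and 81.7 CPM in naive ganglia and 15.7, 16.6 and 15.9 CPM in neurons (log2 fold change -2.37, SE 0.07, adjusted p 1.58e-07). Rab9b had -2.54 and -1.44 against the 2 references, and the retrogene Aldoart1 had -6.96 and -0.90, the latter not called (adjusted p 0.0891).

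The largest fold changes were of genes at or near 0 in 1 group. Adm2, a peptide of the adrenomedullin family, and Nags, an enzyme of the urea cycle, had no count in any naive library and read 16.9, 18.8 and 17.7 CPM and 5.55, 6.95 and 7.12 CPM in neurons, at least 395-fold and 145-fold higher. The matrix metalloproteinase Mmp3 read 0.129, 0 and 0.198 CPM in naive ganglia and 244, 158 and 93.2 CPM in neurons (log2 fold change 10.51, SE 0.61, adjusted p 1.7e-06), with neuron replicate 1 highest (11.24 without naive replicate 3). In the other direction, Cfd (adipsin, made by fat cells) and Ear6 (an eosinophil ribonuclease) had no count in any cultured library, at least 773.9-fold and 324.9-fold lower, and both were several-fold higher in naive replicate 1 than in the other naive libraries (fitted log2 fold changes of -12.09 and -10.84 with it and -10.66 and -9.53 without it). The immunoglobulin gene Ighg2b had 853 counts in naive ganglia and 2 in the cultures, a ratio of CPM of 1113 (95% counting interval 307.3 to 9208), and its fitted log2 fold change was -12.03 without neuron replicate 1 and -8.72 without neuron replicate 2. Inmt, Fcrls, a microglia and macrophage receptor, and the haemoglobin gene Hbb-bt had log2 fold changes of -9.54, -7.91 and -7.71. With 1 cultured library left out these ranged from -10.22 to -8.94 for Inmt, -8.79 to -7.49 for Fcrls and -8.65 to -7.30 for Hbb-bt. The retrogene G6pd2 read 7.07, 5.62 and 5.58 CPM in naive ganglia, 0.119, 0 and 0.0166 CPM in neurons (log2 fold change -7.80; -9.29 without neuron replicate 1, -6.83 without neuron replicate 2) and 0 and 0 CPM in the sham contralateral ganglia of the neurons' own table. These genes, with Csf3, Cxcl1, Cxcl2, Cxcl3, Gdf15 and C1qc above, complete the 8 largest in each direction.

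The same contrast was made in cKO mice (Ahr f/f with the Thy1-driven Cre), in 3 cultures and 3 naive ganglia that share no library with the control comparison. It called 19264 of 23122 genes (83.3%), and 12376 of 22324 (55.4%) against both cKO references, the second being the 2 ganglia opposite a sham operation of male cKO mice, taken 1 day after surgery. The naive cKO mice had the tamoxifen course and age of the naive controls. For the cKO cultures and the sham cKO mice the labels give neither. Of the 10402 genes that control cultures called against both references and that could be tested in cKO, 9632 (92.6%) were called in the same direction there, which is 77.8% of the cKO calls, and 0 in the opposite direction. The cKO cultures and naive cKO ganglia also come from different tables and differ in depth. The agreement therefore cannot tell culture apart from table or depth. Atf3, Cxcl1, Hmox1, Slc7a11, Cldn19 and Pecam1 had log2 fold changes of 5.97, 11.20, 5.36, 5.46, -6.93 and 3.10 in cKO mice, beside 5.99, 9.99, 5.72, 4.77, -6.45 and 3.39 in controls. The test of the difference between genotypes called 1 gene of 22185 (0.00451%), Mchr1 (ENSMUSG00000050164.11, chr15:81235499-81238964, plus strand), a receptor for melanin-concentrating hormone. It read 4.2, 4.38 and 5.14 CPM in naive control and 3.27, 3.1 and 3.85 CPM in naive cKO ganglia, and 0.555, 0.696 and 0.799 CPM in control and 2.34, 2.23 and 2.33 CPM in cKO neurons. Control cultures fell to levels that no other group reached, and cKO cultures fell less. The difference of the 2 culture effects was 2.13 on the log2 scale (adjusted p 0.00998). It was no longer called (adjusted p 0.0562 to 0.0814) when any 1 of 6 libraries was left out: naive control replicate 3, naive cKO replicates 1 and 2, control neuron replicate 2, and cKO neuron replicates 1 and 3. At an unadjusted p under 0.05 the same test held 1673 genes, and DESeq2 called 36.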

How the data were processed

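Read counts per gene and FPKM values were deposited by the authors in 2 tables, 1 with the naive and crush ganglia and 1 with the sham ganglia and neurons. Trim Galore, HISAT2, featureCounts and mm10 are named, without versions, in the submitters' processing notes. The FPKM deposited by the authors fit a division by the whole gene span, introns included, within 0.1% for 99.3% of 20931 genes. Whether counting used strand is not given in the sources used here. Counts were joined over 55401 gene IDs, of which 99.5% matched a symbol.

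Tests used edgeR 4.0.16 (quasi-likelihood, TMM scaling, filterByExpr with 10 counts in a group's libraries and 15 in all, glmTreat for 2-fold) in R 4.3.3, two-sided, with Benjamini-Hochberg adjustment over all genes tested and a threshold of 0.05. The crush contrast was fitted on the 12 naive and crush libraries. DESeq2 1.42.0, limma 3.58.1 on log2(FPKM + 0.1), other scalings, filters, references and fits without each library were alternatives. CPM use TMM factors of all 26 libraries.

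The members and gene lists were chosen with earlier results of these data known. Beside list members, the text names the 8 genes with the smallest p and the 8 with the largest fold change in each direction, called beyond 2-fold, at 5 CPM or more in the higher group, without overlap of the groups, not sex-linked, with a gene symbol that is no clone or model name and without an overlapping gene of over 20% of their counts, and all calls between genotypes where 5 or fewer. Gapdh, as a check of the reference, was chosen after its values were seen. The labels give each neuron culture its own mouse number. A few members of the lists are counted but not reported here by name.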

Additional observations from a re-analysis of the deposited data

Results flagged for a closer look

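The effect of culture differed between genotypes for Mchr1, a receptor for melanin-concentrating hormone: the interaction term, tested with edgeR over 22185 genes, was 2.13 on the log2 scale (adjusted p 0.00998). The gene fell in the 3 control cultures to 0.555, 0.696 and 0.799 CPM and read 2.34, 2.23 and 2.33 CPM in the 3 cKO cultures. The next smallest adjusted p of that test was 0.625. The gene was no longer called when any 1 of 6 libraries was left out (adjusted p 0.0562 to 0.0814).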

How the results depend on the processing

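The neuron and naive libraries come from different tables, the shallowest neuron library held 25299938 counts against 88180611 in the deepest, and the second reference has 2 male libraries; 4541 genes were called against naive ganglia only. The counts against naive ganglia, 8568 higher and 8510 lower, stayed within 1.5 times under the alternatives of scaling, filter, tool, depth, threshold, pooling, reference and block and without each library (7985 to 8904 higher, 8214 to 8703 lower); counting protein-coding genes only, an alternative chosen after seeing the data, left 5519 lower. The 2-fold counts (3922 and 4477) became 2120 and 2922 with limma on FPKM, and 2270 were lower with the sham contralateral reference; the cause was not tested. With that reference the fold changes of Uchl1 (-0.49), Avil (-0.46), Prph (-0.63), Hspa8 (-0.20), Cox5b (-0.81) and Cyp1b1 (0.12) changed sign, with Uchl1, Hspa8 and Cyp1b1 no longer called, and another 5 of the 203 genes named kept their sign but lost their call; with the Ahr fl/fl naive library alone, a single library assumed to vary like the cultures, 8 lost it. The difference between genotypes gave 13 higher and 23 lower genes with DESeq2, and 0 to 4 higher and 0 to 3 lower without 1 library. The crush counts ranged from 1181 to 1642 lower in controls (1857 with all libraries) and from 1054 to 1625 in cKO mice (1677). Same-numbered naive and neuron libraries deviated together with correlations of 0.115, -0.167 and -0.0296, so the numbers do not pair them; with the replicate block 8394 genes were higher and 8326 lower, and 1 of the 203 genes named, Ahrr, lost its call.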

Other observations

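Long intergenic noncoding RNAs depended on the reference: among 813 tested the median log2 fold change was -0.868 against naive and -0.326 against sham contralateral ganglia, with 165 higher and 447 lower against naive and 191 higher and 280 lower against sham contralateral ganglia, beside 8568 and 8510, and 6523 and 7378, over all 21342 genes. Of the 21342, only 20663 were tested against both references. Genes not tested against sham contralateral ganglia count as not called there. Antisense transcripts differed by reference, with medians of 0.458 and -0.0929 over 1539 genes; without a stated strand setting their reads cannot be told apart from those of their partners. Protein-coding genes had medians of 0.137 and -0.0666. Split into 5 equal bins by gene span, 15805 protein-coding genes had median log2 fold changes against naive ganglia of 0.139, 0.189, 0.228 and 0.188 in the 4 shorter bins and -0.0569 in the longest, and of -0.218, -0.105, 0.0215, 0.0720 and -0.124 against sham contralateral ganglia, so the level of the fold changes followed gene length in neither fit in 1 direction.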
